A study of Homo sapiens with 16 samples.

Results

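The 48 genes described here encode the machinery of DNA replication and of the G1/S transition. They were chosen by gene symbol, a rule that uses no measured value, although earlier results of these data were known when it was set. All 48 had a row in each of the 4 comparison tables deposited by the authors, which together hold 23396 genes. Expression was measured by sequencing poly(A) RNA from U2OS, an established human osteosarcoma cell line with functional p53. Cells were transfected with siControl, a control siRNA, or with siRFX7, an siRNA directed at RFX7, and then received 10 µM Nutlin-3a or its solvent DMSO for 24 h. The 4 groups were siControl with DMSO, siControl with Nutlin-3a, siRFX7 with DMSO and siRFX7 with Nutlin-3a, each with 4 libraries and 16 in all. All 4 groups were therefore transfected cells of 1 line. The labels do not say whether libraries came from separate cultures, so the p-values measure only the spread between these libraries, which may be technical.

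Replication origins are licensed in G1, when the origin recognition complex, CDC6 and CDT1 load the helicase made of MCM2 to MCM7 onto DNA. CDC45 and the GINS complex then join that helicase, and polymerases, the sliding clamp PCNA and its loader RFC copy the strands. Many of these genes are known targets of E2F factors, and p53, which Nutlin-3a stabilises by blocking its inhibitor MDM2, is known to lower them through p21 (CDKN1A), an inhibitor of cyclin-dependent kinases. PCNA is also known as a gene that p53 can activate directly. RFX7 is a p53-responsive transcription factor best known for activating growth-restraining genes.

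No value of a single library is in the tables analysed here. A base mean is the normalised read count averaged over the 8 libraries compared, and a group level below is the group mean that a base mean and its fold change imply, placed on the scale of the siControl table. The base means of a table summed to between 27946376 and 35311111 normalised counts, and those of the 48 genes lay between 458 and 14769. RFX7 itself was at a log2 fold change of -2.42 with siRFX7 under DMSO and of -2.37 under Nutlin-3a, as the authors' deposited tables give it. CDKN1A and MDM2, targets of p53, rose by 3.24 and 2.89 with Nutlin-3a in siControl cells, and by 2.98 and 2.76 in siRFX7 cells, in the authors' deposited tables. Of 8 osteoblast-lineage markers, SPARC (base mean 31574), COL1A1 (39039), RUNX2 (432), ALPL (371) and SPP1 (170) were present in the authors' deposited table for siControl. COL1A2 was low there at 13.2, BGLAP was at 4.25 and SP7 had no row. The simple-epithelial keratins KRT8 (24067) and KRT18 (12140) were also present there, as were the epithelial genes EPCAM (191) and CDH1 (121). The leukocyte gene PTPRC was at 5.21, while the T cell gene CD3E and the hepatocyte gene ALB had no row.

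With Nutlin-3a in siControl cells, 47 of the 48 replication genes fell, 0 rose, and PCNA did not pass the test (DESeq2 adjusted p under 0.05, in the authors' deposited table). Over all 23353 genes of that table, 19.6% were called lower and 18.3% higher. Among 10149 well-expressed genes, here those whose base mean was 400 or more, a level that every replication gene exceeded in that table, 36.3% were called lower and 24.5% higher. The median log2 fold change of the replication genes was -0.91, against 0.01 over all genes and -0.04 over the well-expressed genes. Falls of this depth were uncommon elsewhere. At or below a log2 fold change of -1 stood 72 well-expressed genes (0.709%), and 19 of them were replication genes. In bulk samples, fewer cells in S phase and less RNA per cell cannot be told apart.

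In siRFX7 cells, Nutlin-3a lowered all 48 genes in the authors' deposited table for that arm, PCNA included. The background there was 20.3% called lower and 18.7% called higher among 21382 genes. The median log2 fold change of the 48 genes was -1.01, and 24 of them were at or below -1, as were 145 of 9232 well-expressed genes (1.57%). The 2 arms share no library. Across the 48 genes their log2 fold changes correlated with Pearson's r of 0.972 and Spearman's rho of 0.977, given as a description because the genes share libraries within an arm.

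**Figure D1:**
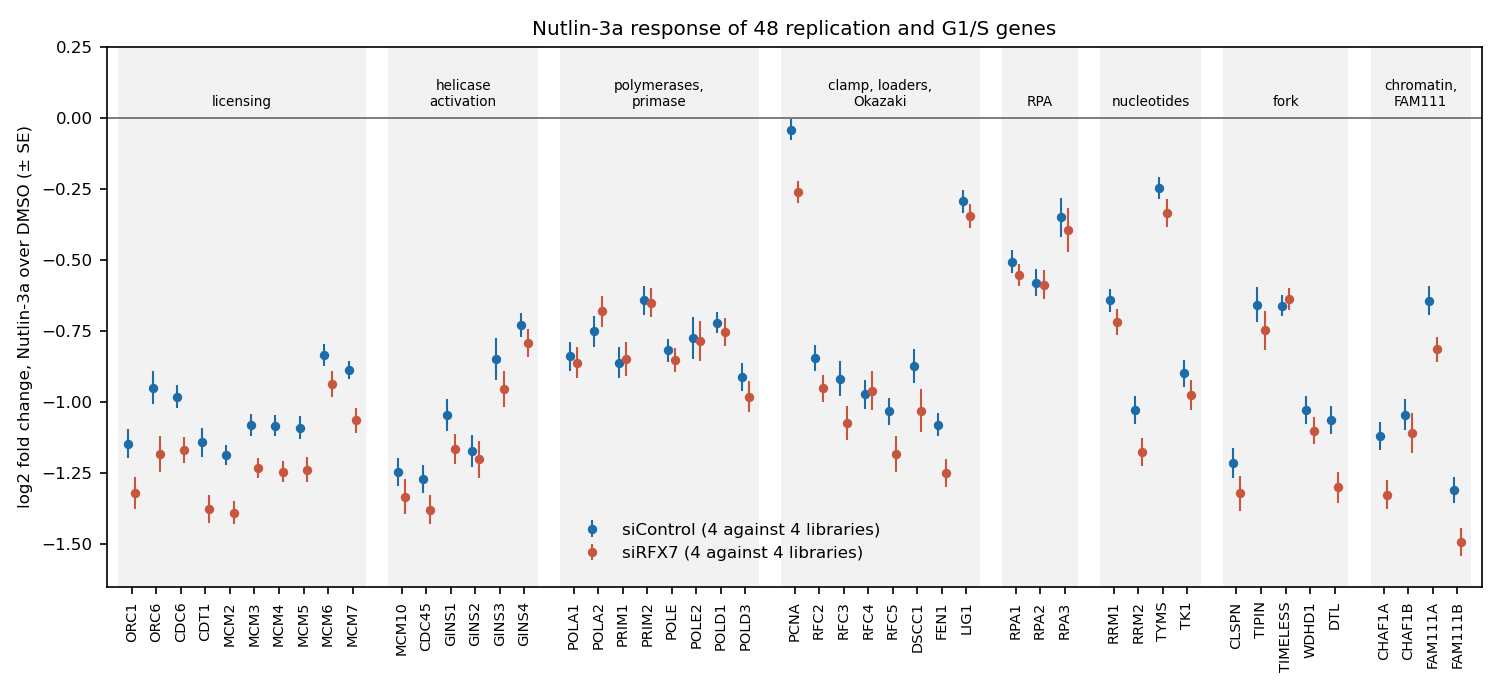
Log2 fold change (Nutlin-3a over DMSO) of each of the 48 genes in siControl cells and in siRFX7 cells, by role, from the authors' deposited DESeq2 tables. Bars are the authors' standard errors. PCNA is at -0.04 and -0.26, and FAM111B is the lowest gene in both arms at -1.31 and -1.49.

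The licensing genes fell together. All 10 were called lower in both arms, with a median of -1.08 in siControl cells and -1.23 in siRFX7 cells. MCM2, a subunit of the replicative helicase (ENSG00000073111, GRCh38 chr3:127598223-127622436, plus strand), went from an implied level of 8582 normalised counts with DMSO to 3775 with Nutlin-3a in siControl cells, and from 8835 to 3376 in siRFX7 cells. An antisense gene shares 22.7% of the exonic bases of MCM2, and whether the counting used strand is not given in the sources used here, so its values are uncertain to that extent. The Nutlin-3a level was 44.0% of the DMSO level in siControl cells and 38.2% in siRFX7 cells. In the authors' deposited tables the log2 fold changes of MCM2 were -1.18 ± 0.04 (SE) and -1.39 ± 0.04, and those of MCM6, the licensing gene that fell least, were -0.83 ± 0.04 and -0.94 ± 0.05. ORC1, the subunit of the origin recognition complex that cycles with the cell cycle, was at -1.15 ± 0.05 and -1.32 ± 0.06 in the authors' deposited tables. CDT1, the loading factor, was at -1.14 ± 0.05 and -1.38 ± 0.05 there, and MCM5 at -1.09 ± 0.04 and -1.24 ± 0.04. These genes therefore kept between 38.2% and 56.1% of their DMSO level in either arm.

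The genes that turn the loaded helicase on fell by a like amount, with medians of -1.11 and -1.18. CDC45, which binds the helicase at firing, went from 3622 to 1501 normalised counts in siControl cells and from 3548 to 1366 in siRFX7 cells. In the authors' deposited tables that was -1.27 ± 0.05 and -1.38 ± 0.05. MCM10, needed for helicase activation, was at -1.25 ± 0.05 and -1.33 ± 0.06 in the authors' deposited tables, and GINS2 at -1.17 ± 0.06 and -1.20 ± 0.06. GINS4, another of the 4 GINS subunits, fell least in this group, at -0.73 ± 0.04 and -0.79 ± 0.05 in the authors' deposited tables. The 4 subunits of this 1 complex thus spanned from -1.17 to -0.73 in siControl cells.

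Falls were shallower among the DNA polymerases and primase, all 8 of which were called lower in both arms with medians of -0.80 and -0.82. POLD3, an accessory subunit of polymerase delta, was lowest at -0.91 ± 0.05 and -0.98 ± 0.06 in the authors' deposited tables. Genes on the same strand share 35.1% of the exonic bases of POLA2 and 14.9% of those of PRIM1, whose values are uncertain to that extent. PRIM2, the large primase subunit, was highest at -0.64 ± 0.05 and -0.65 ± 0.05 there. The 3 subunits of RPA, which coats single-stranded DNA, had a median of -0.51 in siControl cells and -0.55 in siRFX7 cells. RPA2 was at -0.58 ± 0.05 and -0.59 ± 0.05 and RPA3 at -0.35 ± 0.07 and -0.39 ± 0.08 in the authors' deposited tables.

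The clamp, its loaders and the enzymes that finish Okazaki fragments held the widest range in the siControl arm, from -1.08 to -0.04. FEN1, the flap endonuclease, was lowest at -1.08 ± 0.04 and -1.25 ± 0.05 in the authors' deposited tables. LIG1, the ligase that seals Okazaki fragments (GRCh38 chr19:48115445-48170603, minus strand), had implied levels of 3853 and 3143 normalised counts with DMSO and Nutlin-3a in siControl cells, and of 3533 and 2785 in siRFX7 cells. LIG1 thus kept 81.6% and 78.8% of its DMSO level, and its log2 fold changes were -0.29 ± 0.04 and -0.34 ± 0.04 in the authors' deposited tables.

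PCNA, the sliding clamp that tethers polymerases to DNA (ENSG00000132646, GRCh38 chr20:5114953-5126626, minus strand), stood apart from the other 47 genes in siControl cells. Its implied level was 6010 normalised counts with DMSO and 5842 with Nutlin-3a in siControl cells, and 5669 and 4737 in siRFX7 cells. The first 3 levels lie close together and the fourth is the lowest. The log2 fold change was -0.04 ± 0.04 in siControl cells (95% interval -0.113 to 0.031, DESeq2 adjusted p = 0.43) and -0.26 ± 0.04 in siRFX7 cells (DESeq2 adjusted p = 4.21e-10) in the authors' deposited tables. Even in siRFX7 cells PCNA kept 83.5% of its DMSO level, the highest share of the 48 genes there.

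Among the genes of nucleotide supply, all 4 fell in both arms, and TYMS fell least. RRM2, the regulatory subunit of ribonucleotide reductase, was at -1.03 ± 0.05 and -1.18 ± 0.05 in the authors' deposited tables. TYMS, which makes thymidylate, went from 13866 to 11683 normalised counts in siControl cells and from 13225 to 10498 in siRFX7 cells, which is -0.25 ± 0.04 and -0.34 ± 0.05 in the authors' deposited tables. An antisense gene, ENOSF1, shares 39.1% of the exonic bases of TYMS, so with the strand setting unknown the value of TYMS is uncertain. RRM2 is uncertain as well, because another gene on its strand shares 20.2% of its exonic bases and because its pseudogene RRM2P3 had a base mean of 17.9% of that of RRM2 in the siControl table. In the authors' deposited tables RRM2P3 itself was at -1.23 in siControl and -1.03 in siRFX7 cells.

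Fork protection and checkpoint genes fell with medians of -1.03 and -1.10. CLSPN, the checkpoint adaptor claspin, was at -1.21 ± 0.05 and -1.32 ± 0.06 in the authors' deposited tables, and DTL, which directs CDT1 and other proteins bound to PCNA for degradation, at -1.06 ± 0.05 and -1.30 ± 0.05. The genes of the fork protection complex, TIPIN and TIMELESS, were at -0.66 ± 0.06 and -0.66 ± 0.04 in siControl cells and at -0.75 ± 0.07 and -0.64 ± 0.04 in siRFX7 cells in the authors' deposited tables. A pseudogene on the same strand shares 21.0% of the exonic bases of TIPIN. FAM111B, a replication-linked protease (ENSG00000189057, GRCh38 chr11:59107185-59127410, plus strand), was the lowest of all 48 genes in both arms. It went from 3631 to 1466 normalised counts in siControl cells and from 3887 to 1384 in siRFX7 cells, or to 40.4% and 35.5% of the DMSO level. Its relative FAM111A, a protease that clears protein obstacles from DNA, was at -0.64 ± 0.05 and -0.81 ± 0.04 in the authors' deposited tables. CHAF1A, a subunit of the histone chaperone CAF-1, was at -1.12 ± 0.05 and -1.33 ± 0.05 in the authors' deposited tables.

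Promoters are shown for the licensing genes MCM2 and CDC6, which kept 44.0% and 50.6% of their DMSO level with Nutlin-3a in siControl cells, and for PCNA and LIG1, which kept 97.2% and 81.6%. All 4 hold an E2F word. The sequences are RefSeq's, build GRCh38.p14, from 250 bases before to 50 bases after an annotated start, written 5′ to 3′ on the gene's strand. Capitals mark the E2F words TTTCCCGC, TTTCGCGC, TTTGCCGC and TTTGGCGC and the word CCAAT, the core of NF-Y sites, on either strand, so a word on the other strand appears as its reverse complement. TTTCGCGC overlaps its own reverse complement, and in MCM2 the 2 matches overlap in 1 run. PCNA has 2 annotated starts, and the upstream one is shown.
MCM2 (chr3:127598161-127598460, plus): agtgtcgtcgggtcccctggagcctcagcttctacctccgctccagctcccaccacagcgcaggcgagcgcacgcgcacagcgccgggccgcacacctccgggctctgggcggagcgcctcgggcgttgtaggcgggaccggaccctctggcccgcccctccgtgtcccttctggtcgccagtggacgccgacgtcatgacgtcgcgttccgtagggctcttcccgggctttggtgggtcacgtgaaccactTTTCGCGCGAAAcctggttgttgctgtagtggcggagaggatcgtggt
CDC6 (chr17:40287629-40287928, plus): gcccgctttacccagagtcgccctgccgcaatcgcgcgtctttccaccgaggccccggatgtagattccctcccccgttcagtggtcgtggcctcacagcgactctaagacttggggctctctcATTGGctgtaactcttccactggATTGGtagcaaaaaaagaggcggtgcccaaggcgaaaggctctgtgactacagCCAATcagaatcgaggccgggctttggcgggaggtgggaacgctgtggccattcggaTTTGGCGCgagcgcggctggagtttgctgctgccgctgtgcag
PCNA (chr20:5126573-5126872, minus): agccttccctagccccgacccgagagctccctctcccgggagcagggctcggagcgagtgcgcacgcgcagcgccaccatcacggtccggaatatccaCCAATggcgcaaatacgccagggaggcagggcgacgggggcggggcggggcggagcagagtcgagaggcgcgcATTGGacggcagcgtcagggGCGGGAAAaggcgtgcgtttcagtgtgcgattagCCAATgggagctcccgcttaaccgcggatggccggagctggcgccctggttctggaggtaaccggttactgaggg
LIG1 (chr19:48170295-48170594, minus): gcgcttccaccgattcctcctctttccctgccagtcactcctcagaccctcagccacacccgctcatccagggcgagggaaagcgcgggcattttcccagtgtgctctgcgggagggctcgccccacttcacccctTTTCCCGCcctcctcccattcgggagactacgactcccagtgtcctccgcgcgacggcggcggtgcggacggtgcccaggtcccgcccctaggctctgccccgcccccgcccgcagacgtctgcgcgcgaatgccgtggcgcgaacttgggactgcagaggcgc

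RefSeq windows were matched by symbol for 40 of the 48 genes. An E2F word, on either strand, was in a window of 21 of the 40 (52.5%), against 7.11% of 7600 well-expressed genes. Counted by window, it was in 41.2% of the 51 windows of the 40 genes, against 3.31% of all 35116 windows of that length. CCAAT was in 25 of the 40 (62.5%), against 43.6% of the well-expressed genes, and by window in 58.8% against 34.6% of all windows. The CHR words of mitotic promoters, TTTGAA and TTCGAA, were in 3 (7.5%), against 15.2% by gene. By window they were in 5.88%, against 16.4%. GTTGCC, a part of the sites of RFX factors, was in 4 (10%), namely CDC45, FEN1, PRIM2 and WDHD1, against 16.7% by gene. By window it was in 9.80%, against 12.2%. No other word of RFX sites was searched, so sites without GTTGCC were not counted. RFC5 is among the genes without the word, which does not show that its promoter lacks an RFX site. For E2F only the 4 words above were searched, so genes without one of them may hold other E2F sites. The Nutlin-3a responses of genes with and without an E2F word overlapped widely. The 21 genes with one had a median log2 fold change of -0.85 in siControl cells, with a range from -1.21 to -0.04, and the 19 without one had a median of -0.97. A match is a description of letters, not of binding.

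Levels were compared between genes only per kilobase of exon. With DMSO in siControl cells, TYMS (5614 normalised counts per kilobase), PCNA (4085) and MCM7 (3830) were the highest of the 48 genes, and GINS3 (150), RPA3 (275) and CHAF1B (281) were the lowest. With Nutlin-3a the level per kilobase was 4730 for TYMS, 3971 for PCNA and 2072 for MCM7. The level of PCNA per kilobase was thus close to that of MCM7 with DMSO and well above it with Nutlin-3a.

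**Figure D2:**
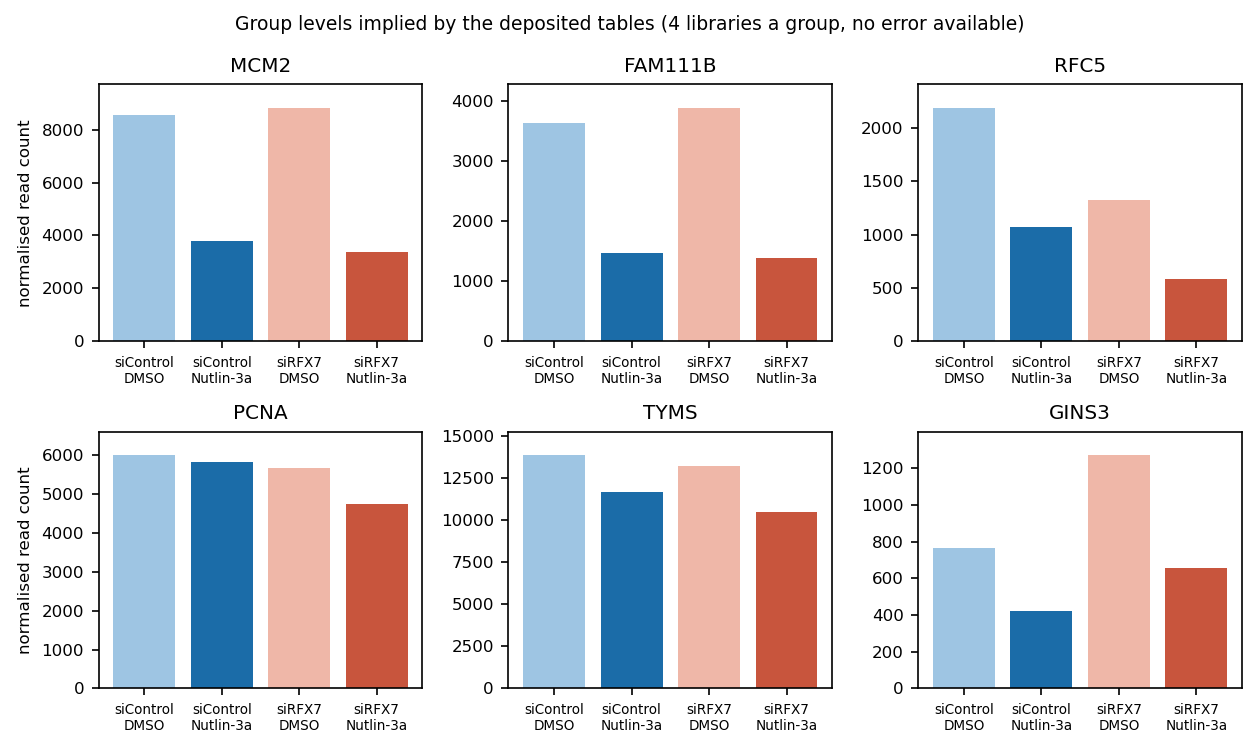
Group levels (normalised read counts implied by the authors' deposited tables, on the scale of the siControl table, 1 bar a group, each panel on its own axis from 0) of 6 genes in the 4 groups. No error is drawn, since the tables hold no library values. MCM2 and FAM111B drop with Nutlin-3a in both arms, PCNA is lowest only with siRFX7 and Nutlin-3a together, and RFC5 and GINS3 shift with siRFX7 under both treatments.

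The next question was whether the Nutlin-3a response differed between the arms. The difference is the log2 fold change in siRFX7 cells minus that in siControl cells, with an SE from both tables, a two-sided normal p and Benjamini-Hochberg adjustment over 21339 genes. The difference was below 0 for 44 of the 48 replication genes (91.7%), against 51.0% of 9733 well-expressed genes. The shift was small. The median was -0.10, and 2 of the 48 genes, MCM2 and PCNA, were called lower and 0 higher. Of all genes 0.764% were called lower and 0.173% higher, and of the well-expressed genes 1.44% lower and 0.329% higher. At an unadjusted p under 0.05 stood 16 of the 48 (33.3%), against 6.32% of all genes and 10.8% of the well-expressed genes. The 48 genes share libraries and are not independent of each other.

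**Figure D3:**
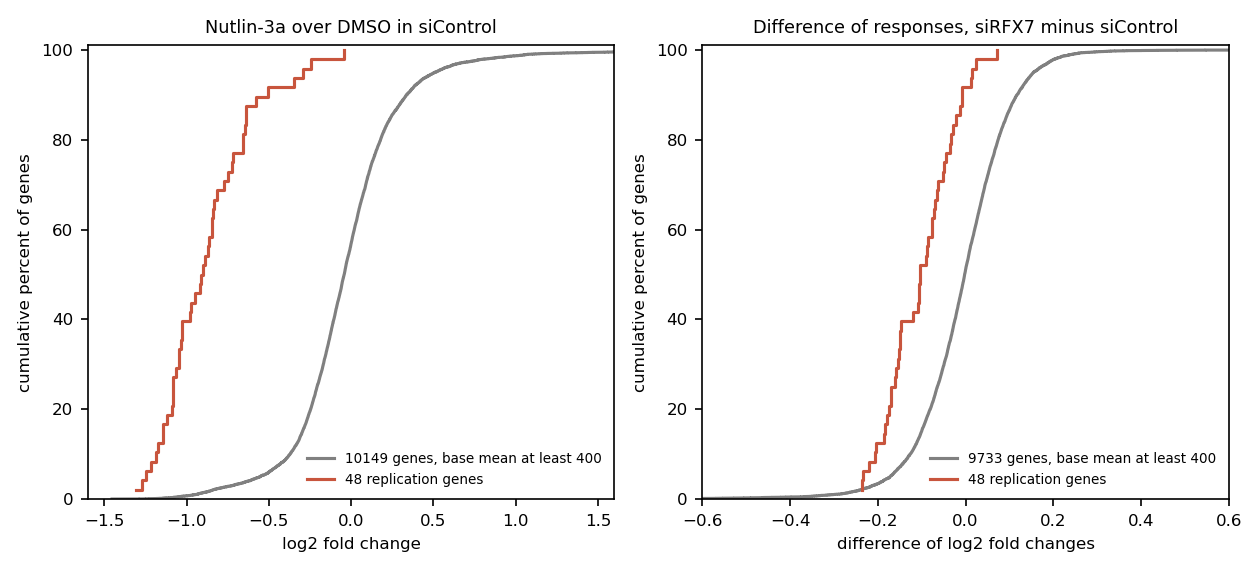
Cumulative percent of genes (y axis) by the Nutlin-3a log2 fold change in siControl cells (left) and by the difference of responses, siRFX7 minus siControl (right), for the 48 replication genes and for the well-expressed genes (10149 and 9733). The replication genes cross 50% at their medians, -0.91 on the left and -0.10 on the right; the well-expressed genes cross it at -0.04 on the left and near 0 on the right.

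MCM2 differed by -0.20 ± 0.05 between the arms (95% interval -0.308 to -0.101, adjusted p = 0.017). PCNA differed by -0.22 ± 0.05 (95% interval -0.326 to -0.114, adjusted p = 0.00816), both computed from the authors' deposited tables. The larger differences that did not pass were those of DTL (-0.24 ± 0.07, adjusted p = 0.107), ORC6, a small subunit of the origin recognition complex (-0.23 ± 0.09, adjusted p = 0.283), and CDT1 (-0.23 ± 0.07, adjusted p = 0.0899), again from the authors' deposited tables. CHAF1A was at -0.21 ± 0.07, CDC6 at -0.19 ± 0.06, FAM111B at -0.18 ± 0.07, MCM7 at -0.18 ± 0.06 and ORC1 at -0.17 ± 0.08, none of which passed (computed from the authors' deposited tables).

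By role, the difference was centred furthest from 0 in the licensing genes and in the group of CAF-1 and FAM111 genes, each with a median of -0.18. In the licensing group all 10 genes were below 0 and 9 of 10 had an unadjusted p under 0.05, MCM6 (-0.10 ± 0.06) being the exception. The clamp and loader group had a median of -0.15, from -0.22 for PCNA to 0.01 ± 0.08 for RFC4, a subunit of the clamp loader. The helicase activation genes had a median of -0.10, from -0.12 ± 0.08 for GINS1 to -0.03 ± 0.09 for GINS2, and 0 of 6 had an unadjusted p under 0.05. The polymerases and primase lay nearest 0 with a median of -0.02, from -0.07 ± 0.07 for POLD3 to 0.07 ± 0.08 for POLA2, and 0 of 8 had an unadjusted p under 0.05. The other groups had medians of -0.04 (RPA), -0.08 (nucleotide supply) and -0.09 (fork protection). Their extremes were RPA1 at -0.05 ± 0.06 and RPA2 at -0.01 ± 0.07, RRM2 at -0.15 ± 0.07 and TK1 at -0.08 ± 0.07, and DTL at -0.24 and TIMELESS at 0.02 ± 0.05, while CHAF1B closed the CAF-1 and FAM111 group at -0.06 ± 0.09. Differences between the role groups were not tested.

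**Figure D4:**
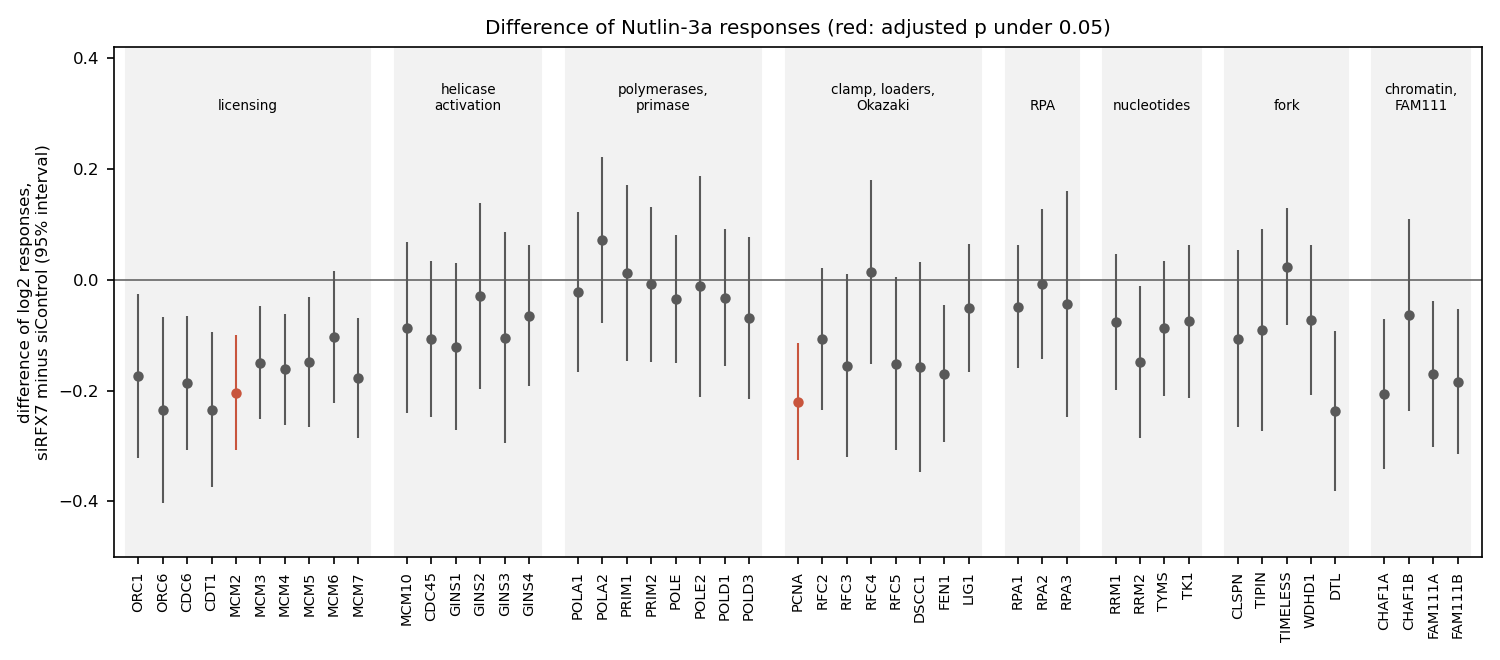
Difference of the Nutlin-3a responses (log2, siRFX7 minus siControl) of each of the 48 genes by role, computed from the authors' deposited tables. Bars are 95% intervals and red marks an adjusted p under 0.05. MCM2 (-0.20) and PCNA (-0.22) passed the adjusted threshold, and 44 of 48 points lie below 0.

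The same shift can be read from the knockdown effect, siRFX7 over siControl, in the 2 treatments. Because it uses the same 16 libraries, it is not separate support. Under DMSO, 14 of the 48 replication genes were called lower and 8 higher in the authors' deposited table, with a median of -0.03, and over all 19511 genes 17.5% were called lower and 19.9% higher. Under Nutlin-3a, 22 were called lower and 2 higher, with a median of -0.12, and over all 20335 genes 15.4% were called lower and 17.2% higher. For well-expressed genes the shares lower and higher were 22.2% and 31.3% under DMSO, and 20.7% and 29.1% under Nutlin-3a. For the replication genes these shares were 29.2% and 16.7% under DMSO, and 45.8% and 4.17% under Nutlin-3a. Most effects were small, and a called change of 0.25 or more in log2 was seen for 6 of the 48 genes (12.5%) under DMSO and for 12 (25%) under Nutlin-3a, against 23.1% and 19.8% of all genes in the 2 tables. Among 9383 genes well expressed in both tables those shares were 25.6% and 22.9%.

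Called under both treatments were 15 genes, all with the same sign (13 lower and 2 higher). Agreement in sign was common in general, since 15.8% of the 9383 genes well expressed in both tables were lower under both, 24.0% higher under both and 0.213% of opposite sign. Called under DMSO only were 7 genes, of which 6 were higher (CDT1, MCM3, RPA1, TK1, CHAF1A and FAM111B) and 1, TIMELESS, lower, where 704 of those 9383 genes were higher and 584 lower under DMSO only. Called under Nutlin-3a only were 9 genes, all lower (ORC6, CDC6, MCM2, MCM7, DSCC1, RPA3, TYMS, CLSPN and TIPIN), which is 18.8% of the 48, where 4.31% of the well-expressed genes were lower under Nutlin-3a only. The other 17 genes (35.4%) passed under neither treatment, as did 36.6% of the well-expressed genes. The calls of CDT1 and FAM111B under DMSO were lost when that table was centred on its median gene.

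**Figure D5:**
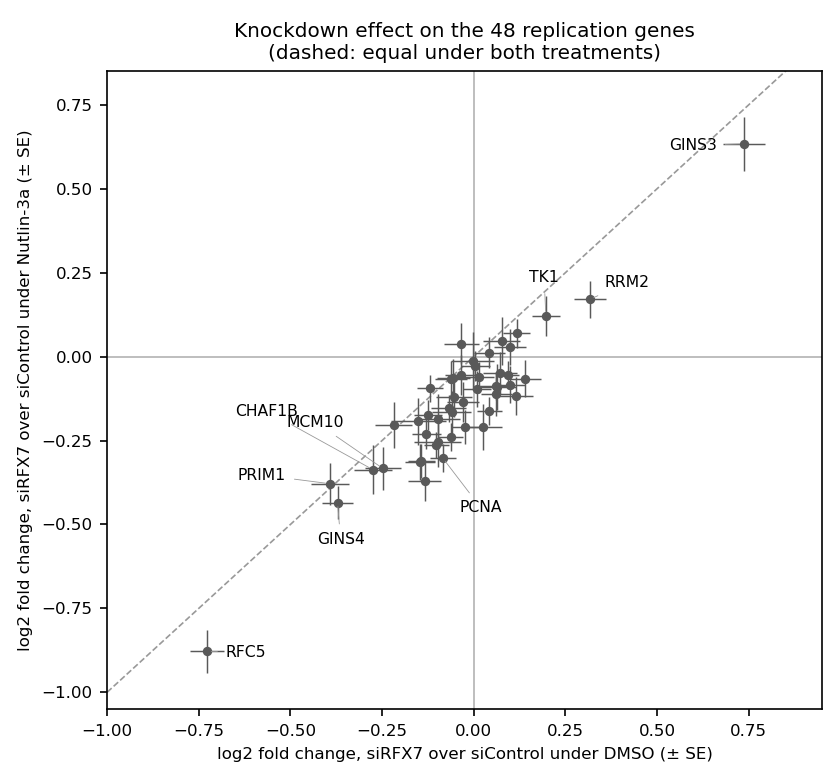
Knockdown effect (log2, siRFX7 over siControl) of each of the 48 genes under DMSO (x axis) and under Nutlin-3a (y axis), from the authors' deposited tables. Bars are the authors' SEs and the dashed line marks equal effects. RFC5 at the lower left (-0.73, -0.88) and GINS3 at the upper right (0.74, 0.63) lie far from the other 46 genes.

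RFC5 and GINS3 had the largest knockdown effects, in opposite directions. RFC5, a small subunit of the clamp loader (ENSG00000111445, GRCh38 chr12:118013588-118033130, plus strand), had implied levels of 2191 normalised counts in siControl cells with DMSO and 1071 with Nutlin-3a, and of 1323 and 583 in siRFX7 cells. It was lower with siRFX7 or Nutlin-3a alone, and with both it stood at 26.6% of the siControl DMSO level. Its knockdown effect was -0.73 ± 0.05 under DMSO (DESeq2 adjusted p = 1.85e-51) and -0.88 ± 0.06 under Nutlin-3a (DESeq2 adjusted p = 8.85e-41) in the authors' deposited tables. The other loader subunits did not move alike: RFC4 was at -0.22 ± 0.05 and -0.20 ± 0.07 and RFC3 at 0.06 ± 0.05 and -0.09 ± 0.07, the latter called in neither of the authors' deposited tables.

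GINS3, a subunit of the GINS complex (ENSG00000181938, GRCh38 chr16:58295080-58406144, plus strand), had implied levels of 763 and 424 normalised counts with DMSO and Nutlin-3a in siControl cells, and of 1272 and 658 in siRFX7 cells. Its level was higher with siRFX7 under both treatments, and the level with siRFX7 and Nutlin-3a was 86.2% of that in siControl cells with DMSO. The knockdown effect was 0.74 ± 0.06 under DMSO (DESeq2 adjusted p = 8.89e-36) and 0.63 ± 0.08 under Nutlin-3a (DESeq2 adjusted p = 1.03e-13) in the authors' deposited tables. GINS4 of the same complex moved the other way, at -0.37 ± 0.04 and -0.43 ± 0.05, and GINS1 and GINS2 were called in neither of the authors' deposited tables. The Nutlin-3a response of GINS3 was near that of other genes, at -0.85 ± 0.07 and -0.95 ± 0.06 in the authors' deposited tables. An antisense gene shares 10.9% of the exonic bases of GINS3 and another 21.2% of those of GINS4, so both values are uncertain in the same way as that of TYMS.

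PRIM1, the catalytic primase subunit, was lower with siRFX7, at -0.39 ± 0.05 under DMSO and -0.38 ± 0.06 under Nutlin-3a (authors' deposited tables), while the other subunits of polymerase alpha and primase (POLA1, POLA2 and PRIM2) passed under neither treatment. CHAF1B was at -0.27 ± 0.05 and -0.34 ± 0.07 and CHAF1A at 0.14 ± 0.04 and -0.07 ± 0.05 in the authors' deposited tables, although both encode subunits of CAF-1. MCM10 was at -0.25 ± 0.05 and -0.33 ± 0.06 in the authors' deposited tables. DTL was at -0.13 ± 0.04 and -0.37 ± 0.06, FEN1 at -0.14 ± 0.04 and -0.31 ± 0.05 and FAM111A at -0.15 ± 0.04 and -0.31 ± 0.05 in the authors' deposited tables, each further from 0 under Nutlin-3a. In the test of the difference of responses, DTL, FEN1 and FAM111A did not pass (Benjamini-Hochberg adjusted p = 0.107, 0.306 and 0.407). PCNA was at -0.08 ± 0.03 and -0.30 ± 0.04 in the authors' deposited tables.

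RRM2 rose with siRFX7, by 0.32 ± 0.04 under DMSO (DESeq2 adjusted p = 2.52e-11) and 0.17 ± 0.05 under Nutlin-3a (DESeq2 adjusted p = 0.00702), in the authors' deposited tables. Its pseudogene RRM2P3 moved the opposite way, at -0.76 and -0.57 in the authors' deposited tables. TK1, the salvage thymidine kinase, was at 0.20 ± 0.04 and 0.12 ± 0.06 there, and passed under DMSO alone. Of the licensing genes, CDT1 (0.12 ± 0.05) was the highest and MCM6 (-0.13 ± 0.04) the lowest under DMSO, and MCM3 (-0.05 ± 0.04) and MCM4 (-0.26 ± 0.04) under Nutlin-3a, by the authors' deposited tables. All 10 licensing genes lay below 0 under Nutlin-3a and 6 of them passed, whereas 4 of the 10 lay below 0 under DMSO and 2 passed. Of the remaining extremes by role, POLD1 was at 0.04 ± 0.04 under DMSO and POLA2 at 0.04 ± 0.06 under Nutlin-3a, and neither passed in the authors' deposited tables. RPA1 was at 0.12 ± 0.04 and 0.07 ± 0.04, RPA3 at -0.15 ± 0.08 and -0.19 ± 0.07, TYMS at -0.07 ± 0.05 and -0.15 ± 0.04, and WDHD1, a fork protein, at 0.10 ± 0.04 and 0.03 ± 0.05 in the authors' deposited tables.

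Between the 2 treatments, whose tables share no library, the knockdown effects of the 48 genes correlated with r of 0.929 and rho of 0.828. Without RFC5 and GINS3 these were 0.838 and 0.804 over 46 genes. The values are a description, since the genes of a table share libraries.

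A short match to an siRNA's seed in a 3′ UTR can lower a transcript that the siRNA was not designed against, and the siRNA sequences are not given in the sources used here. Words that stood out in 3′ UTRs in an earlier analysis of these same fold changes were looked up in GENCODE 29 models, so their match to the effects of siRFX7 is not independent evidence. The heptamer GTATCTA was in the 3′ UTR of 3 of the 48 genes (RFC5, MCM10 and CHAF1B, 6.25%), against 8.06% of 8918 well-expressed genes. The hexamer GACGTA was in 2 (GINS3 and CHAF1A, 4.17%), against 4.78%. The sites of the 2 genes with the largest knockdown effects are shown with the word in capitals. RFC5 was lower with siRFX7, whereas GINS3 was higher, which is not the direction described above for a seed match.
RFC5, chromosome 12, base 437 of a 956-base 3′ UTR: gcattgtgtctGTATCTAatttaaacaga
GINS3, chromosome 16, base 32 of a 1415-base 3′ UTR: ggctcctcacaGACGTAtccctccgtgtg
The 3 genes with the heptamer had knockdown effects from -0.73 to -0.25 under DMSO and from -0.88 to -0.33 under Nutlin-3a (authors' deposited tables). The 45 genes without it had medians of -0.03 and -0.11, with ranges from -0.39 to 0.74 and from -0.43 to 0.63. The ranges overlap, and the word was picked from these same fold changes. The 2 genes with the hexamer were at 0.74 and 0.14 under DMSO and at 0.63 and -0.07 under Nutlin-3a (authors' deposited tables). The part of these words in the knockdown effects was not tested.

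The 48 genes were set beside 36 other genes of replication and G1/S. With Nutlin-3a in siControl cells 32 of the 36 fell, POLD4, a small subunit of polymerase delta, rose, and ORC4, MCM9 and POLE4 did not pass, with a median of -0.77 in the authors' deposited table. The lowest were E2F2 (-1.45), an activating E2F factor, and RNASEH2A (-1.36 ± 0.34), a subunit of RNase H2. The highest were POLD4 (1.16 ± 0.20) and POLE4 (DESeq2 adjusted p = 0.999) in the authors' deposited table. RNASEH2A and POLD4 had low base means there, 22.4 and 84.0, and their values are less certain. In siRFX7 cells 31 fell and 1 rose, with a median of -0.85, from E2F2 (-1.52) and CCNE2 (-1.45) to ORC4 (0.03) and POLD4 (0.95) in the authors' deposited table. The 48 genes and these 36 therefore moved in 1 direction with few exceptions.

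With siRFX7, 7 of the 36 fell and 6 rose under DMSO, and 12 fell and 5 rose under Nutlin-3a, by the authors' deposited tables. The regulators of S-phase entry CCNE1 (cyclin E1) and E2F2 rose with siRFX7, by 0.82 and 0.70 under DMSO and by 0.54 and 0.64 under Nutlin-3a (authors' deposited tables). The lowest under DMSO were the histone chaperone gene ASF1B (-0.54) and DBF4 (-0.36), the activator of the CDC7 kinase, and under Nutlin-3a ASF1B (-0.65) and POLD4 (-0.51) in the authors' deposited tables. The difference between the arms had a median of -0.08 over the 36 genes. The lowest were CCNE2 (-0.33) and CCNE1 (-0.28), and the highest were ORC2 (0.18) and RNASEH2A (0.28 ± 0.53). Only CCNE1 passed (-0.28 ± 0.06, adjusted p = 0.000463, computed from the authors' deposited tables).

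Against 20 mitotic G2/M genes, which are lowered by p53 as well, the replication genes had a like median and a wider range of falls. All 20 mitotic genes fell in both arms, with medians of -0.84 and -1.04 in the authors' deposited tables. In siControl cells they spanned from -0.97 (MAD2L1 and TTK) to -0.68 (CCNB1) and -0.63 (CCNB2) in the authors' deposited table, where the replication genes spanned from -1.31 to -0.04. In siRFX7 cells they spanned from -1.29 (PLK1) and -1.25 (PRC1) to -0.85 (FOXM1 and CCNB2) in the authors' deposited table. The difference between the arms had a median of -0.20 over the 20 mitotic genes, and 8 of them passed, against -0.10 and 2 of 48. PLK1 (-0.35) and CDC20 (-0.33) had the lowest differences and CDC25C and ANLN (both -0.07) the highest. Under Nutlin-3a 15 of the 20 were called lower with siRFX7 and 0 higher, and under DMSO 2 lower and 5 higher, in the authors' deposited tables. The extremes were CDC25C (-0.31), CENPF (-0.13), UBE2C (0.27) and CCNB1 (0.30) under DMSO, and CDC25C (-0.39), PRC1 (-0.35), UBE2C (DESeq2 adjusted p = 0.972) and FOXM1 (0.08) under Nutlin-3a, by the authors' deposited tables. Whether the lists differ from each other was not tested.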

How the data were processed

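Poly(A) RNA of 16 U2OS samples was sequenced from stranded libraries, per the labels' protocols. The submitters' processing notes name build hg38 and, among other tools, Trimmomatic 0.39, cutadapt 2.10, featureCounts 1.6.5 and DESeq2 1.20.0. The aligner and the strand setting are not given in the sources used here. Only 4 tables of the authors' own comparisons were used. Their base mean is a signal, the mean normalised count that the authors computed with DESeq2. Their log2 fold changes, standard errors, Wald scores and p-values (raw and Benjamini-Hochberg adjusted) are as deposited by the authors. Whether fold changes were shrunken is not stated, but each divided by its SE gives the deposited Wald score.

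The threshold for a call was an adjusted p under 0.05. Differences of responses, implied group levels, intervals (95%) and list summaries were computed with Python 3.11.15, pandas 2.3.3 and scipy 1.17.1. Of these steps, only the test of the difference of responses was run on simulated data. The 2 estimates of each group's level differed by a constant ratio, which was removed. Exon lengths and gene positions are from GENCODE 29 (GRCh38). The members and lists were chosen with earlier results of these data known. Values were printed for the extremes of each role, the 10 largest changes in a comparison, called differences, and the 2 highest and lowest genes of the 2 other gene lists.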

Additional observations from a re-analysis of the deposited data

Results flagged for a closer look

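For 2 of the 48 replication genes the response to Nutlin-3a was not the same in the 2 arms, by a test of the difference itself computed from the authors' deposited tables. MCM2 differed by -0.20 on the log2 scale (Benjamini-Hochberg adjusted p = 0.017), with a deeper fall in siRFX7 cells. PCNA differed by -0.22 (Benjamini-Hochberg adjusted p = 0.00816) and passed as lower in siRFX7 cells alone. No cause of either difference was tested.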

How the results depend on the processing

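Leaving out libraries and refitting with another normalisation were not run, because the tables hold comparisons and no value of a library. No paired analysis was possible because the comparison tables carry no replicate numbers. The medians of the 48 genes kept their direction in all 5 comparisons under every alternative run, and no called value changed sign. Counts of calls moved with the threshold. With a log2 change of at least 0.25 required, the calls with siRFX7 under DMSO went from 14 lower and 8 higher to 4 and 2, those under Nutlin-3a from 22 lower and 2 higher to 11 and 1, and the called differences of response from 2 to 0. With Bonferroni in place of Benjamini-Hochberg adjustment these were 5 and 3, 11 and 1, and 0. At an adjusted p under 0.01 the called differences were 1. Further alternatives were chosen after seeing the data. Leaving out the 5 genes with the heptamer or the hexamer left 1 gene higher with siRFX7 under Nutlin-3a. Leaving out PCNA left 1 called difference. Both counts follow from the calls by subtraction and do not check them. Centring each table on its median gene moved 4 single calls (CDC45 and TIMELESS under Nutlin-3a gained, CDT1 and FAM111B under DMSO lost) and turned 3 values near 0 with siRFX7 under DMSO that passed in neither setting, POLE to -0.00890, RFC2 to -0.00437 and RRM1 to -0.000300. Keeping genes with a base mean of 100 or more added 3 calls (WDHD1 under DMSO, CDC45 and TIMELESS under Nutlin-3a), and dividing the statistics of the differences by their robust SD added 1 (CDT1). Depth per library is unknown.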
